A study of Mus musculus with 6 samples.

Results

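Malat1, Neat1, Miat, Pvt1 and Dleu2 are long noncoding RNAs that act or accumulate in the cell nucleus, and their levels are described here in sorted LT-HSCs, long-term haematopoietic stem cells, which maintain blood formation. They are 5 of the 26776 genes in the deposited table, taken by gene symbol, and all 5 were found. They were picked with measured values of this comparison in view, so their own differences are given as a description without a test. Cells came from bone marrow of Trim47+/eGFP mice, whose genotype name places a green fluorescent protein reporter on 1 allele of Trim47, a ubiquitin ligase gene of the tripartite motif family. Every library is from such mice, and 3 libraries come from cells with low reporter signal (eGFPlo LT-HSCs) and 3 from cells with high signal (eGFPhi LT-HSCs). The sources used here give no age, sex, sorting gate or animal number and do not say that replicates are separate animals, so spread and p-values cover only these samples and may be technical. Libraries held 11221070 to 26058391 counts. Levels are CPM, counts relative to the library total after trimmed-mean (TMM) scaling, as mean ± SD with n = 3 per group, and edgeR gave fold changes of eGFPhi over eGFPlo, with the standard error (SE) in log2 units.

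Nuclear long noncoding RNAs work as RNA, without a protein product. Malat1 gathers in nuclear speckles, the stores of splicing factors, and Neat1 is the scaffold of paraspeckles, bodies that hold RNA-binding proteins and certain transcripts. Miat forms its own nuclear foci and binds splicing factors through a repeated short motif, Pvt1 is the neighbour of the growth gene Myc, and Dleu2 is the host transcript of miR-15a and miR-16-1.

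The sequences at the end of Malat1 and of the long Neat1 transcript are shown because these RNAs end without a poly(A) tail and the libraries were enriched on poly-T beads. In place of a poly(A) tail, both RNAs end in an A-rich tract that folds onto 2 U-rich motifs as a triple helix, after RNase P has cut the transcript at a transfer RNA-like structure. Capitals mark U-rich motif 1, U-rich motif 2 and the stretch of the A-rich tract that both RNAs share. The sequences are written 5′ to 3′ in DNA letters on the transcript strand. In Malat1, further A bases directly before that stretch are in lower case.
Malat1 (Malat1-201 bases 6608 to 6691, GRCm38 chr19:5795982-5796065, minus strand): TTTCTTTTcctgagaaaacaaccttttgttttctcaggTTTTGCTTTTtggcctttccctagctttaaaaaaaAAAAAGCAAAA
Neat1 (Neat1-201 bases 20682 to 20771, GRCm38 chr19:5824708-5824797, minus strand): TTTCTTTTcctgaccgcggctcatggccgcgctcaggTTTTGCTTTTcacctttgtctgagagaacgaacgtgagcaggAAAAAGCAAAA
The motifs TTTCTTTT, TTTTGCTTTT and AAAAAGCAAAA, in this order on the transcript strand with at most 60 bases between neighbours, were found in 2 of 141767 annotated GENCODE transcripts (0.00141%), 1 of each gene. Both printed sequences hold these motifs, so the 2 hits were fixed in advance, and only the absence from other transcripts was open. The annotated Malat1-201 runs on for 292 bases beyond the tract, whereas Neat1-201 ends with it. The next 56 bases downstream of Neat1 are annotated as Gm27702, the transfer RNA-like piece, which had 1 count in eGFPlo replicate 2 and 0 in the other 5 libraries.
Gm27702 (GRCm38 chr19:5824652-5824707, minus strand): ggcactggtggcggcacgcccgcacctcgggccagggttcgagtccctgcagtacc

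Miat carries the repeat to which the branch point factor Sf1 binds. Its stretch with 3 of the copies is shown, with TACTAAC in capitals.
Miat (Miat-205 bases 5581 to 5637, GRCm38 chr5:112216754-112216810, minus strand): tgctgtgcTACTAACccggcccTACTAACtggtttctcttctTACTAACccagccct
TACTAAC, searched on the transcript strand, occurred 6 times in Miat-205, between bases 4941 and 5623. Of 260 long noncoding transcripts of at least 5000 bases, 46 (17.7%) held 1 copy or more and 2 (0.769%) held 6 or more. Malat1-201, Pvt1-202 and Dleu2-202 held 0 copies and Neat1-201 held 1.

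Dleu2 is shown through the 2 small RNAs made from it (RefSeq, GRCm38.p6), with the seed, bases 2 to 8, in capitals.
miR-15a-5p (chr14:61632075-61632096, minus strand): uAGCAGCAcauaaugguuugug
miR-16-5p (chr14:61631936-61631957, minus strand): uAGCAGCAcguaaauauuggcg
Both share the seed AGCAGCA. Neither lies in an annotated Dleu2 exon, and both lie within the span of 8 of its 15 transcripts.

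Between eGFPlo and eGFPhi LT-HSCs, Malat1 was 1.40-fold and Neat1 1.25-fold higher in eGFPhi, Pvt1 was 1.88-fold and Miat about 5.15-fold lower, and the Dleu2 values of both groups overlapped. For 4 of the 5 RNAs the values of the groups were apart, beside 69.8% of the 18081 tested genes, and nothing is read from that count because the RNAs were chosen from this contrast. Across all tested genes 64.0% passed an adjusted p of 0.05 in either direction. Miat did not pass the filter on low counts, and the other 4 did.

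**Figure D1:**
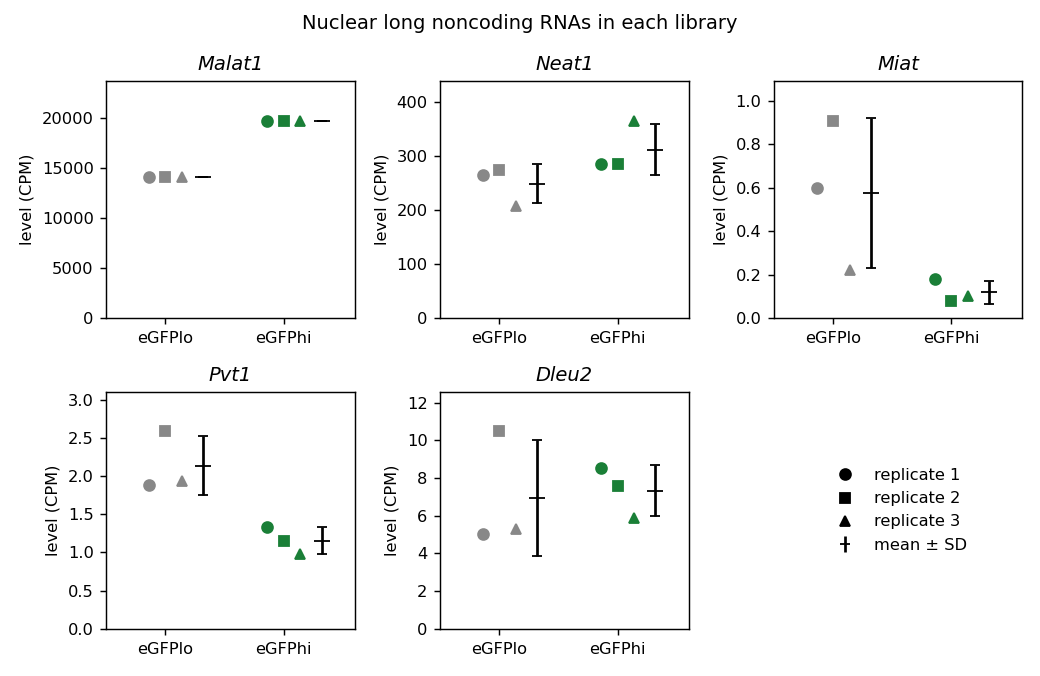
Level in CPM (linear axes from 0, a scale per RNA) of Malat1, Neat1, Miat, Pvt1 and Dleu2 in the 3 eGFPlo (grey) and 3 eGFPhi (green) libraries, with mean and SD beside the points. The Malat1 points coincide within each group, replicate 3 stands apart for Neat1 in both groups, and the Dleu2 groups overlap.

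Compared per kilobase of merged exon, the order was Malat1, Neat1, Dleu2, Pvt1 and Miat in both groups. In eGFPlo the levels were 2025 ± 4.22, 12.0 ± 1.74, 0.613 ± 0.270, 0.305 ± 0.0558 and 0.0620 ± 0.0370 CPM per kb. In eGFPhi they were 2831 ± 3.46, 14.98 ± 2.24, 0.648 ± 0.118, 0.165 ± 0.0257 and 0.0128 ± 0.00565 CPM per kb. Neighbours in this order did not overlap in any library of a group. The nearest pair was Dleu2 and Pvt1 in eGFPlo, where the lowest Dleu2 value was 0.446 and the highest Pvt1 value 0.370 CPM per kb.

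Malat1 (ENSMUSG00000092341, GRCm38 chromosome 19, positions 5795690 to 5802672, minus strand, 4 annotated transcripts) ranked 3 among all genes of the table by mean level. Its level was 14107, 14155 and 14161 CPM in eGFPlo replicates 1 to 3. In eGFPhi it was 19780, 19744 and 19790 CPM. All eGFPhi libraries lay far above all eGFPlo libraries, and the values within a group were almost equal although library sizes differed 2.32-fold. The means were 14141 ± 29.5 and 19772 ± 24.2 CPM, a log2 fold change of 0.48 (SE 0.006). DESeq2 gave 0.48 with a larger SE of 0.020. Malat1 made up 1.41% of all counts in eGFPlo and 1.98% in eGFPhi. Its coefficient of variation in CPM was 0.208% in eGFPlo and 0.122% in eGFPhi, where counting error alone gives 0.219% and 0.164%. By the squared deviations given below for Neat1, Malat1 was at 0.963 (eGFPlo) and 2.24 times (eGFPhi) the counting variance. These are 1.39 and 3.24 times 0.693, the median over many genes under counting error. A single gene can lie above or below that median by counting error alone. As a share of all counts, without TMM scaling, the SD was 0.00319% in eGFPlo and 0.00467% in eGFPhi. A spread below counting error is not read from the CPM values, which include that scaling.

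Malat1 also set much of the long noncoding total. It took 55.2 to 55.6% of all counts in long noncoding genes in eGFPlo and 60.7 to 61.0% in eGFPhi. Long noncoding genes other than Malat1 made up 1.12 to 1.149% of all counts in eGFPlo and 1.27 to 1.28% in eGFPhi. Its fold change was not extreme, since 4536 tested genes, 501 of them long noncoding, had a larger one. The genes with the most similar profile over the 6 libraries were Gimap6, a GTPase of the immunity-associated family, Igf1r, the insulin-like growth factor receptor, and Msi2, an RNA-binding protein active in stem cells. Their root mean square distance from the centred log2 profile of Malat1 was 0.0110, 0.0120 and 0.0126 log2 units, out of 12617 genes compared. Gm37376, a model on the opposite strand within Malat1 that shares 453 exon bases with it, had 1.54 and 1.65 CPM in eGFPlo and eGFPhi.

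RNAs without a long poly(A) tail moved in the same direction as Malat1. The 8 listed ones were mitochondrial ribosomal RNAs and small noncoding RNAs, all abundant except Terc, the telomerase RNA. They summed to 13.5 to 13.9% of counts in eGFPlo and 15.1 to 15.2% in eGFPhi. Each of them rose (edgeR), beside 32.3% of all tested genes. Most of the sum came from the mitochondrial ribosomal RNAs mt-Rnr1 and mt-Rnr2, which rose 1.03-fold and 1.09-fold. Rn7sk, the small RNA that restrains transcription elongation, rose 1.36-fold (adjusted p = 2.86e-07), and Rmrp, the RNA of RNase MRP, rose 1.502-fold (adjusted p = 1.04e-06). With library totals computed without these RNAs, the log2 fold change of Malat1 was 0.48. The part of tail-dependent capture in the Malat1 difference was not tested.

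Neat1 (ENSMUSG00000092274, chromosome 19, positions 5824708 to 5845478, minus strand, 4 annotated transcripts) lies 22.0 kb from Malat1 on the same strand. It had 264, 274 and 207 CPM in eGFPlo replicates 1 to 3. In eGFPhi it had 284, 285 and 365 CPM. Replicates 1 and 2 of both groups lay close together, the third eGFPlo library was the lowest and the third eGFPhi library the highest. The means were 249 ± 36.2 and 311 ± 46.5 CPM, and the log2 fold change was 0.33 (SE 0.13). It was 0.20 without eGFPhi replicate 3, 0.21 without eGFPlo replicate 3 and 0.08 without both, the last an alternative chosen after seeing the data. The short polyadenylated and the long form of Neat1 cannot be separated in a table per gene.

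The spread of Neat1 was wider than that of genes of like abundance. Its coefficient of variation was 14.5% in eGFPlo and 14.95% in eGFPhi, where counting error gives 1.67% and 1.30%. Its SD within groups was 0.214 in log2 units, and among 1179 genes within 2-fold of its level the median was 0.0356 and 2.88% had a larger SD. For comparison, squared deviations between replicates were a median of 1.36 (eGFPlo) and 1.27 (eGFPhi) times the value under counting error for genes with 1 annotated transcript, 1.85 and 1.93 times for genes with 2 to 5, and 2.31 times in both groups for genes with over 5. For Neat1, with 4 transcripts, they were 88.6 and 133 times the counting variance. This is 128 and 192 times that value, which is a median over many genes and equals 0.693 of the counting variance. These medians cover genes with an expected count of at least 20, most of them less abundant than Neat1. At an equal relative spread this measure grows with the count, so it does not compare genes of like abundance. The profiles nearest to Neat1 were those of Ube2cbp, Cog6, a subunit of the Golgi tethering complex, and Cenpv, at distances of 0.0705, 0.0910 and 0.0926.

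**Figure D2:**
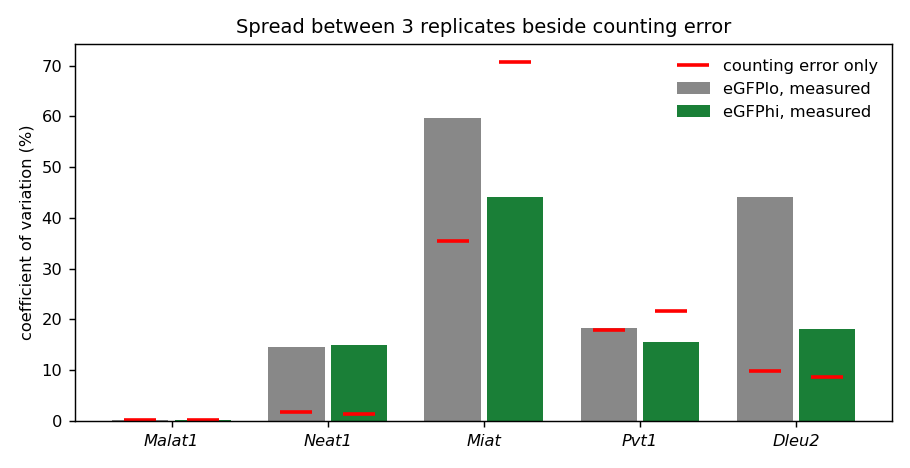
Coefficient of variation in percent (bars, axis from 0) of each RNA over the 3 libraries of a group, with the value that counting error alone would give (red marks). Neat1 and Dleu2 stand above their marks in both groups, Miat does in eGFPlo, Pvt1 lies near its marks, and Malat1 is too small to see on this scale.

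One short gene model inside Neat1 had a pattern that the groups do not describe. Gm27505 is a 110-base model whose bases all lie in 3 of the Neat1 transcripts (bases 732 to 841 of Neat1-201), and it is printed because its counts switch between libraries.
Gm27505 (GRCm38 chr19:5844638-5844747, minus strand): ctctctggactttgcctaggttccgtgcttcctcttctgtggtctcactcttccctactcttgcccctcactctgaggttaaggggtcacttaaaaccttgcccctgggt
It had 1, 1 and 126 counts in eGFPlo replicates 1 to 3 and 61, 138 and 1 counts in eGFPhi replicates 1 to 3. Its high and low libraries cut across both groups. Adding these counts to Neat1, an alternative chosen after seeing the data, left the Neat1 log2 fold change at 0.33. The models Gm27533 and Gm28006 inside Neat1 and Gm27694 inside Malat1 were at 1 count in all 6 libraries, as were 235 genes of the table. How reads were shared among overlapping models is not stated in those sources.

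Miat (ENSMUSG00000097767, chromosome 5, positions 112213228 to 112229395, minus strand) was close to the limit of detection. It had 7, 13 and 4 counts in eGFPlo replicates 1 to 3, and 2 counts in every eGFPhi library. The groups did not overlap, but each value rests on a handful of reads. Summed over libraries this was 24 against 6 counts, or 0.545 against 0.106 CPM, a 5.15-fold lower level in eGFPhi with a 95% counting interval of 2.05 to 15.4, which covers counting error only. Leaving out single libraries moved the ratio from 3.50 (without eGFPlo replicate 2) to 7.28 (without eGFPlo replicate 3).

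Transcripts of the tested proteins known to bind Miat were lower in eGFPhi in the same fit. Of the 4 listed factors 3 were tested and 3 fell (edgeR), beside 31.7% of all tested genes. Sf1, the branch point factor, fell 1.53-fold (adjusted p = 0.00338), Srsf1, a splicing enhancer protein, 1.38-fold (adjusted p = 8.90e-06) and Qk, the quaking RNA-binding protein, 1.11-fold (adjusted p = 0.00636). With an assumed coefficient of variation of 0.2, chosen after seeing the data because replicates may be technical, 0 of the 3 were called.

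Pvt1 (ENSMUSG00000097039, chromosome 15, positions 62037986 to 62378096, plus strand, 10 annotated transcripts) was lower in eGFPhi. It had 22, 37 and 35 counts in eGFPlo replicates 1 to 3, or 1.88, 2.59 and 1.94 CPM. In eGFPhi it had 15, 30 and 19 counts, or 1.34, 1.153 and 0.976 CPM. The groups did not overlap, and the gap between the lowest eGFPlo and the highest eGFPhi value was small. The means were 2.14 ± 0.390 and 1.155 ± 0.179 CPM, a log2 fold change of -0.91 (SE 0.22). DESeq2 gave the same fold change with a larger SE of 0.43. Its coefficient of variation was 18.3% and 15.5%, where counting error gives 17.9% and 21.7%. In limma on log2 of FPKM plus 1 the difference was -0.11, since a pseudocount of 1 is large against a gene this low. The profiles nearest to Pvt1 were CAAA01147332.1, Engase, a cytosolic glycosidase, and H3f3aos, an antisense transcript, at 0.0807, 0.0826 and 0.0894.

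Myc, the transcription factor gene 47.6 kb upstream of Pvt1, had 103, 87.0 and 95.9 CPM in eGFPlo and 85.4, 79.9 and 78.7 CPM in eGFPhi. The groups did not overlap, and Myc fell 1.17-fold (log2 fold change -0.23, SE 0.06, adjusted p = 0.0156). The call did not hold without eGFPhi replicate 3, where the log2 fold change was -0.20, nor with the assumed coefficient of 0.2. Max, the obligate partner of Myc, fell 1.66-fold, from 81.7 to 49.2 CPM (adjusted p = 7.69e-06).

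Dleu2 (ENSMUSG00000097589, chromosome 14, positions 61602839 to 61682373, minus strand, 15 annotated transcripts) did not separate the groups. It had 5.05, 10.5 and 5.32 CPM in eGFPlo and 8.54, 7.57 and 5.91 CPM in eGFPhi. The second eGFPlo library was the highest of all 6 and the other 2 eGFPlo libraries were the lowest. The means were 6.95 ± 3.06 and 7.34 ± 1.33 CPM, with a log2 fold change of 0.07 (SE 0.29). Leaving out single libraries gave values from -0.11 (without eGFPlo replicate 3) to 0.48 (without eGFPlo replicate 2). Its SD of 0.456 in log2 units was exceeded by 7.17% of 4196 genes of like level, whose median was 0.166. The nearest profiles were Chac1, a glutathione-degrading enzyme, Smim15 and Itgb1bp2, at 0.128, 0.155 and 0.168.

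Other models within the span of Dleu2 did separate the groups. Gm37472 and Gm37420 lie on its strand (positions 61677443 to 61681494 and 61667220 to 61670131) and share 0 bases with its annotated exons. Gm37472 had 58.7, 60.9 and 57.8 CPM in eGFPlo and 37.4, 38.3 and 38.0 CPM in eGFPhi, a 1.56-fold fall (log2 fold change -0.64, SE 0.04, adjusted p = 1.25e-05). Gm37420 had 20.05, 20.7 and 21.7 CPM in eGFPlo and 10.9, 10.7 and 11.9 CPM in eGFPhi, a 1.86-fold fall (adjusted p = 5.50e-05). Replicates of these 2 models were close together where those of Dleu2 were scattered.

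On the opposite strand within this span, Kcnrg, which encodes a potassium channel regulator, had 18, 36 and 37 counts in eGFPlo and 2, 5 and 6 counts in eGFPhi. It fell 8.71-fold, from 2.04 ± 0.487 to 0.226 ± 0.0715 CPM (adjusted p = 1.04e-04). Trim13, a ubiquitin ligase gene at the end of Dleu2, had 11.4 ± 0.747 and 12.3 ± 0.860 CPM and was not called (log2 fold change 0.10, SE 0.10, adjusted p = 0.407). The rows of Mir15a and Mir16-1 held 0 to 2 counts per library, and a library of this kind does not measure mature miRNAs. Gm27972, an opposite-strand model that shares 137 exon bases with Dleu2, had 8, 6 and 2 counts in eGFPlo and 5, 25 and 11 in eGFPhi, beside 59 to 197 counts for Dleu2.

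**Figure D3:**
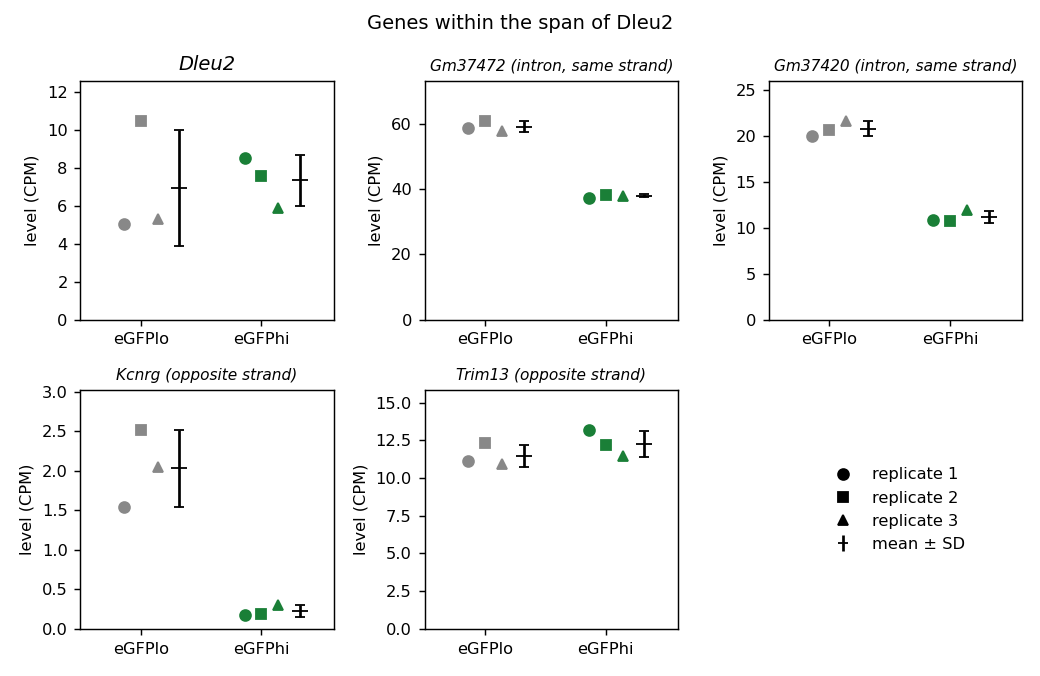
Level in CPM (linear axes from 0, a scale per gene) of Dleu2 and of 4 genes within or across its span, in eGFPlo (grey) and eGFPhi (green) libraries, with mean and SD. Gm37472, Gm37420 and Kcnrg are lower in every eGFPhi library, and Dleu2 and Trim13 overlap between groups.

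The listed targets of miR-15 and miR-16, which act mainly in the cell cycle, did not move one way. Of 14, 13 were tested, 3 rose and 8 fell (edgeR). Their median log2 fold change was -0.21, against 0.003 over all tested genes, of which 32.3% rose and 31.7% fell. Cdk6, a kinase of the G1 phase, fell 2.46-fold, from 1068 to 434 CPM (adjusted p = 5.63e-09), and Cdc25a, a phosphatase that activates cyclin-dependent kinases, fell 1.63-fold (adjusted p = 4.96e-06). Myb, a transcription factor of progenitors, fell 1.30-fold (adjusted p = 1.27e-06), a call that did not hold with the assumed coefficient of 0.2. Ccnd2, which encodes cyclin D2, rose 1.55-fold, from 238 to 368 CPM (adjusted p = 7.73e-07).

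Of the transcripts whose proteins share a nuclear body with Malat1 or Neat1, most of those called were lower in eGFPhi. Of 28 nuclear speckle proteins, 5 rose and 17 fell (edgeR), beside 32.3% and 31.7% of all tested genes. Their median log2 fold change was -0.15. Srrm1 fell 1.34-fold (adjusted p = 7.47e-06), Srsf1 and Srsf2 fell 1.38-fold and 1.39-fold, and Srsf5 rose 1.42-fold, from 332 to 470 CPM (adjusted p = 2.60e-05). These 4 genes encode splicing proteins. Of 27 paraspeckle proteins, 2 rose and 16 fell, with a median of -0.21. Smarca4, a chromatin remodelling ATPase, fell 1.40-fold (adjusted p = 2.18e-06), and the RNA-binding proteins Hnrnpul1, Dazap1 and Ewsr1 fell 1.32-fold, 1.58-fold and 1.27-fold. With the assumed coefficient of 0.2, 0 speckle genes were called, and 0 paraspeckle genes rose and 2 fell, Dazap1 among them.

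Among factors of RNA ends and of nuclear decay, genes were called in both directions. Of 13 factors of Malat1 end processing and the triple helix, 12 were tested, 1 rose, 4 fell and 7 were not called, with a median of -0.08. The share that fell was near the 31.7% of all tested genes. Pop1, a subunit of RNase P, fell 1.89-fold (adjusted p = 2.36e-04), its subunit Pop4 1.22-fold, Elac2, which cuts the far end of the transfer RNA-like piece, 1.46-fold, and Mettl16, which binds the triple helix, 1.18-fold. Of 17 nuclear decay factors tested, 2 rose, 8 fell and 7 were not called, beside 32.3% and 31.7% of all tested genes, with a median of -0.20. The exosome subunits Exosc3 and Exosc4 fell 1.75-fold and 1.68-fold and the helicase Mtrex 1.28-fold, while Zfc3h1, a scaffold that directs polyadenylated nuclear RNA to the exosome, rose 1.153-fold (adjusted p = 7.50e-04). With the assumed coefficient of 0.2, 1 end processing factor (Pop1) and 3 decay factors fell and 0 of either list rose.

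Most of the called genes among other long noncoding RNAs were higher in eGFPhi. Of 37 listed and tested, 17 rose and 6 fell (edgeR), beside 32.3% and 31.7% of all tested genes. Their median log2 fold change was 0.21. Firre, a nuclear RNA of the X chromosome, rose 2.02-fold, from 117 to 236 CPM (adjusted p = 1.19e-07), Lncpint 1.56-fold, and Kcnq1ot1, an imprinted antisense RNA, 1.38-fold, from 737 to 1016 CPM. Of all 1205 long noncoding genes tested, 468 (38.8%) rose and 272 (22.6%) fell, with a median of 0.25. Malat1, at 0.48, and Neat1, at 0.33, lay above this median and Pvt1 and Dleu2 below it.

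**Figure D4:**
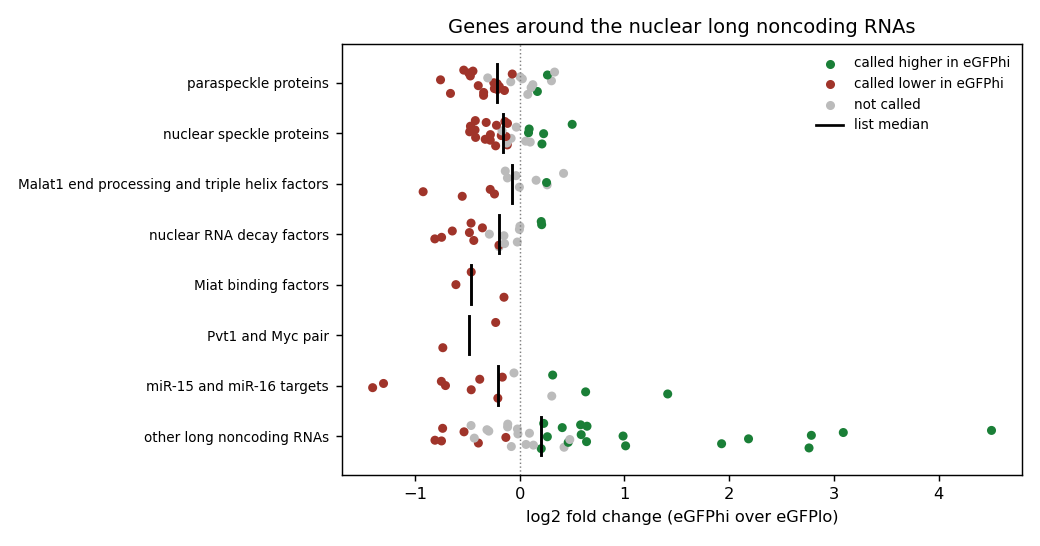
Log2 fold change (eGFPhi over eGFPlo) of each tested gene in the lists around the nuclear long noncoding RNAs, coloured by the call at an adjusted p of 0.05, with a black line at the list median. Paraspeckle and nuclear speckle genes have medians of -0.21 and -0.15, and other long noncoding RNAs 0.21.

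Neighbours of the 5 loci included called genes in both directions, at a share near that of all genes. Within 100 kb, 24 other genes were tested, of which 6 rose, 8 fell and 10 were not called, beside 64.0% of all tested genes called in either direction. Ltbp3, a binding protein of latent TGF-beta that lies 37.2 kb from Malat1, rose 2.26-fold, from 73.6 ± 2.09 to 166 ± 4.44 CPM (adjusted p = 2.86e-07). Frmd8, on the far side of Neat1, rose with a log2 fold change of 0.31 (SE 0.06), while Dpf2 (0.02, SE 0.04) in the same cluster was not called. Pola2, a subunit of DNA polymerase alpha, fell by 0.46 in log2 units (SE 0.04), and next to Miat the sulfotransferase gene Tpst2 rose 0.59 (SE 0.10). Within 100 kb of Neat1, 4 of the tested neighbours rose and 4 fell. Besides Pola2, the falls were those of Gm42067 (6.50-fold, from 2.48 to 0.409 CPM), Gm50387 (2.54-fold) and Znrd2 (1.74-fold).

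Markers of LT-HSCs and of other cell types also differed between the groups. Their counts stand beside 32.3% of all tested genes that rose and 31.7% that fell (edgeR). The 10 LT-HSC markers summed to 866 to 906 CPM in eGFPlo and 2157 to 2380 CPM in eGFPhi, and all 10 rose. The 8 granulocyte-monocyte progenitor markers summed to 6265 to 6386 CPM in eGFPlo and 850 to 1074 CPM in eGFPhi, and the 8 B cell markers to 6060 to 6149 and 735 to 760 CPM. All 8 of each fell. T and NK cell markers summed to 68.6 to 69.5 and 10.2 to 11.7 CPM (5 of 5 tested fell), and megakaryocyte markers to 113 to 120 and 309 to 322 CPM (5 of 6 rose and 1 fell). Erythroid markers summed to 60.1 to 63.0 and 25.4 to 26.1 CPM (6 of 7 fell), and monocyte and macrophage markers to 138 to 154 and 108 to 122 CPM (1 of 5 rose and 4 fell). No marker of these lists was at 0 in all libraries. Their part in the differences of Malat1, Neat1, Miat and Pvt1 was not tested, and in bulk RNA fewer cells of a type and less RNA per cell cannot be told apart. Trim47 itself, the gene of the reporter, rose 2.91-fold (adjusted p = 1.69e-05), which checks the sort labels.

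**Figure D5:**
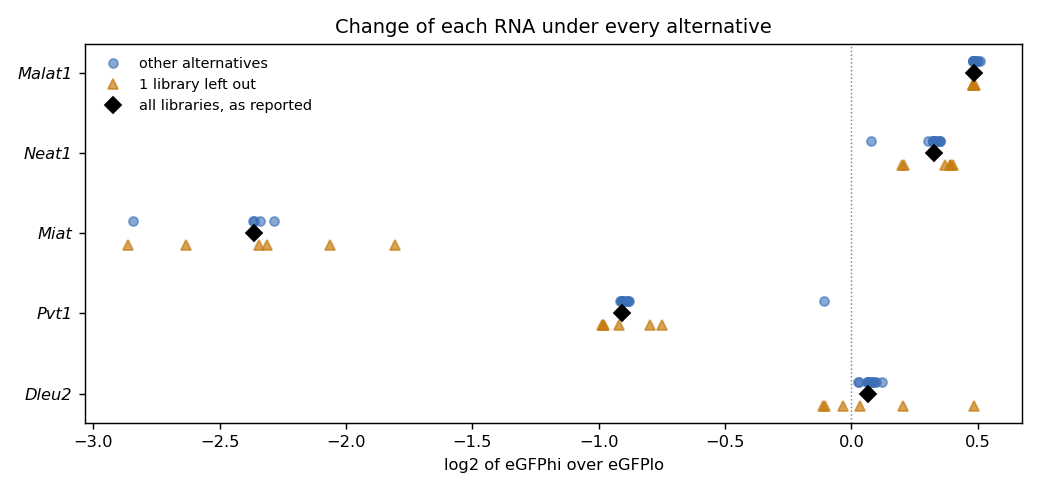
Log2 of eGFPhi over eGFPlo for each RNA with all libraries (black diamond), with 1 library left out (orange triangles) and under the other alternatives (blue circles). Malat1 stays between 0.48 and 0.51, Neat1 reaches 0.08 without both replicates numbered 3, and Dleu2 falls on both sides of 0.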

How the data were processed

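Per the labels' protocols, RNA (integrity number above 7.0) was enriched on poly-T beads for 6 stranded, paired-end libraries. Per the submitters' processing notes, CASAVA 1.8, HISAT2, StringTie and edgeR and the builds hg38 and GRCm38 were used, with no roles stated. The sources used here name no read counter or strand setting. Per the file headers, the deposited values are counts and FPKM for each gene and library. Of its 26776 genes, 26450 had the same position in GENCODE M21 (GRCm38).

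The counts were fitted with edgeR 4.0.16 (with limma 3.58.1, in R 4.3.3). After filterByExpr (minimum count 10, minimum total 15) and TMM scaling, a quasi-likelihood model on group alone was used, and p-values of the 18081 tested genes were adjusted after Benjamini and Hochberg, with a threshold of 0.05. The SE was derived as the absolute log2 fold change over the square root of the F statistic. Totals of 11221070 to 26058391 counts put 3 summed counts at 0.0681 CPM in eGFPlo and 0.0529 CPM in eGFPhi. The fit was tested on simulated data of 18081 genes, with 50 genes changed at each size and the rest unchanged. Among changed genes that passed the filter in the simulated data, it recovered 68.75% of changes of -1, 51.0% of -0.5, 45.8% of 0.5 and 82% of 1 in log2 units. It called 0.0287% of the 17408 unchanged genes that passed the filter. In the real data 64.0% of tested genes were called, so these rates do not carry over to them. Every pair of replicates differed by more than counting error (chi-square of 4.43 to 6.96 per gene).

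The members and lists were chosen with earlier results of these data known. The text names the members, at most 4 called genes per list by p, the 3 most similar profiles per member (at least 1 CPM) and some of the neighbours within 100 kb. Replicate numbers are shared by the groups, but same-numbered libraries did not deviate together (r = -0.0133, 0.000555 and -0.0108), so groups were compared unpaired. Alternatives were RLE and upper-quartile factors, totals without abundant RNAs lacking a long tail, and no filter or 5 CPM in 3 libraries. Others were DESeq2 1.42.0, limma-voom, limma on log2 of FPKM plus 1, a replicate block and leaving out each library. Chosen after seeing the data were an assumed coefficient of variation of 0.2, leaving out both replicates numbered 3 and adding Gm27505 to Neat1.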

Additional observations from a re-analysis of the deposited data

How the results depend on the processing

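In sign, Malat1 and Neat1 stayed higher and Pvt1 and Miat lower in eGFPhi under every alternative run for them. An assumed coefficient of variation of 0.2 changes the SE and hardly the estimate, so the sign adds nothing there. With it the SE was 0.24 for Malat1 (log2 fold change 0.48), 0.24 for Neat1 (0.32) and 0.33 for Pvt1 (-0.91). With DESeq2 the SE was 0.020, 0.17 and 0.43. The log2 fold change of Malat1 was 0.48 with DESeq2 and with RLE factors, 0.49 in limma on log2 of FPKM plus 1, 0.50 without a filter and with the stricter filter, 0.51 with upper-quartile factors, and 0.48 to 0.49 when leaving out 1 library. Neat1 was 0.078 without both replicates numbered 3 (0.20 to 0.40 leaving out 1 library), Pvt1 was -0.11 in limma on log2 of FPKM plus 1 (-0.99 to -0.75 leaving out 1 library), and Dleu2 ranged from -0.11 to 0.48 leaving out 1 library, turning to -0.03 without eGFPhi replicate 1, -0.10 without eGFPlo replicate 1 and -0.11 without eGFPlo replicate 3. The Pvt1 value follows from the pseudocount; the cause of the other shifts was not tested.

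With an assumed coefficient of variation of 0.2, 3637 genes were higher and 2982 lower, against 5840 and 5731. The lists then held (higher and lower) 0 and 2 paraspeckle genes against 2 and 16, 0 and 0 nuclear speckle genes against 5 and 17, 0 and 1 end processing factors against 1 and 4, 0 and 3 decay factors against 2 and 8, 0 Miat binding factors lower against 3, 1 of the Myc pair against 2, 4 miR-15 and miR-16 targets lower against 8, and 10 and 3 other long noncoding RNAs against 17 and 6. Single counts also moved: end processing factors higher in eGFPhi were 0 or 2 against 1, decay factors higher 1 against 2, and the Myc pair 1 against 2 without eGFPhi replicate 3 or both replicates numbered 3. Within 50 kb, 3 neighbours rose and 4 fell against 6 and 8.

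Of 50 named genes other than the members, 23 had the same call under all 18 settings. Of these 50 genes, 4 changed sign, all of them neighbours of the members, and none of the 4 was called in the fit with all libraries. The member Dleu2 also changed sign, as given above. Slc25a45 was -0.094 with limma-voom and -0.12 to 0.34 leaving out 1 library (against 0.07), Spryd7 -0.0013 without both replicates numbered 3 and -0.019 to 0.086 leaving out 1 library (0.03), Gm37376 -0.019 to 0.27 (0.11), and Gm27505 -0.14 to 5.38 (0.42). With the replicate block, log2 fold changes were 0.48 for Malat1, 0.33 for Neat1, -0.92 for Pvt1 and 0.10 for Dleu2; the end processing and decay factors higher in eGFPhi were 0 and 1, and Map3k11 lost its call. At 6 to 24 summed counts, depth limits Miat.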
